A study of Mus musculus with 36 samples.

Results

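Wild type (WT) and PKP4-knockout (PKP4-KO) keratinocytes that had been kept for 72 h in low calcium medium (LCM) were compared through 6 of the 36 RNA libraries of the series, 3 per genotype. The libraries were chosen by their labels alone, and no measured value entered the choice. Both genotypes were primary epidermal keratinocytes from newborn mice backcrossed to C57BL/6J, WT from Pkp4+/+ pups and PKP4-KO from Pkp4-/- pups. The knockout allele derives from Pkp4 tm1b(EUCOMM)Wtsi, in which Cre excised 1 exon and FLPe then removed the lacZ reporter. All of the cells were grown on collagen I in a medium with calcium-free serum to which hydrocortisone, insulin, EGF and cholera toxin were added, so that both genotypes shared these additives. The other libraries came from the same genotypes at 24 h or in high calcium medium (HCM), and from a Rescue line of PKP4-KO cells that carried human PKP4 fused to GFP from a lentiviral vector and had been selected with puromycin. WT and PKP4-KO cells necessarily came from different pups, and how many pups or cultures stand behind the 3 libraries of a group is not given in the sources used here. The p-values below therefore measure the spread between libraries, which may be smaller than that between animals.

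PKP4 is a plakophilin of the armadillo family, related to p120-catenin, that sits at adherens junctions and desmosomes and takes part in the control of the small GTPase RhoA, which drives actomyosin contraction through the kinases ROCK1 and ROCK2. Cadherins need extracellular calcium to hold cells together. Keratinocytes in low calcium therefore stay largely without mature junctions and keep features of the basal layer, while a rise in calcium sets off junction assembly and the sequence of differentiation from the spinous to the cornified layer. The question addressed here is how the RNA of the genotypes differed after 72 h at low calcium.

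The counts summed to between 19463812 and 21658763 in the WT libraries and to between 16283183 and 21441437 in the PKP4-KO libraries. Levels are given as CPM, the counts of a gene relative to the library total, after TMM scaling (the trimmed mean method of edgeR). The TMM factors were 1.02 to 1.17 in WT and 0.73 to 0.93 in PKP4-KO. At these depths 3 counts, the floor used here, correspond to 0.119 to 0.252 CPM, a limit that covers counting error only. The PKP4-KO libraries resembled each other less than the WT libraries did: the SD of the log2 difference between libraries was 0.46 to 0.51 in WT, 0.61 between PKP4-KO replicates 1 and 3, and 0.87 to 0.88 between PKP4-KO replicate 2 and the others. PKP4-KO replicate 2 held more RNA of several short and very abundant genes. Actb, for example, stood at 1638, 1655 and 1561 CPM in WT and at 1739, 6952 and 2316 CPM in PKP4-KO replicates 1 to 3. Counts without this library are given beside some of the results they touch, and other list counts changed without it as well. Of the tight junction genes, for example, 12 were lower and 0 higher without it, against 14 and 1 with it. Of the genes of actin and the serum response factor 8 were lower and 2 higher, against 10 and 4. The 12 keratinocyte markers summed to 57318 to 69174 CPM in WT and to 67365 to 77779 CPM in PKP4-KO, although 6 of them were called lower and 1 higher (median log2FC -0.32). Fibroblast markers summed to 6.87 to 8.40 CPM and 2.18 to 7.30 CPM, with Fap at 0. Melanocyte markers summed to 1.27 to 1.55 CPM and 0.90 to 1.83 CPM, with Sox10 and Tyr at 0. The immune markers summed to 31.8 to 33.6 CPM in WT and 17.3 to 32.2 CPM in PKP4-KO, nearly all of it from Cd68, with Cd207 and Cd3e at 0. The endothelial list summed to 6.72 to 8.16 CPM and 11.5 to 14.6 CPM, with Cdh5 and Cldn5 at 0. The Merkel cell and sebocyte list summed to 29.5 to 37.2 CPM and 71.6 to 96.9 CPM, with Atoh1 and Mc5r at 0. In PKP4-KO replicate 3 alone, the macrophage gene Lyz2 reached 3.25 CPM and Col1a1 1.95 CPM; the part of such cells in any result was not tested.

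Pkp4 itself, the gene targeted by the knockout, stood at 39.4, 44.7 and 39.1 CPM in the WT libraries and at 14.1, 9.06 and 10.7 CPM in the PKP4-KO libraries (log2FC -1.86 ± 0.16, adjusted p = 2.77e-10). Here log2FC is the fitted log2 fold change of PKP4-KO over WT, ± gives its SE, and each group has 3 libraries throughout. The groups did not overlap, and PKP4-KO retained 27.5% of the WT mean, counted over the whole gene. An exact permutation test on a single gene cannot go below p = 0.1 with 3 libraries against 3, and reached it for Pkp4 (two-sided). Of the other 6 genes of the family, only Pkp2, a plakophilin of simple epithelia and heart, passed the test. It rose from 1.55, 1.15 and 1.18 CPM to 7.93, 5.03 and 3.8 CPM (log2FC 2.11 ± 0.39, adjusted p = 7.12e-05). The main epidermal plakophilins did not pass the test. Pkp1 had 2096, 2283 and 2042 CPM in WT and 1827, 2517 and 2198 CPM in PKP4-KO (log2FC 0.03 ± 0.11, adjusted p = 0.866), and Pkp3 had 432, 422 and 439.7 CPM and 447, 379 and 421 CPM (log2FC -0.05 ± 0.14, adjusted p = 0.772). Without TMM factors, which shifts the median of all log2 fold changes from 0.02 to -0.35, Pkp1 was called lower at -0.37. The p120-catenin gene Ctnnd1 stood at 60, 56.3 and 58.9 CPM in WT and at 33.4, 67 and 32.5 CPM in PKP4-KO (log2FC -0.40 ± 0.31, adjusted p = 0.291). It was lower in PKP4-KO replicates 1 and 3 and higher in replicate 2, and both without replicate 2 and without TMM factors it was called lower at a log2 fold change of -0.83.

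Nearly as many genes rose as fell in PKP4-KO. Of 15114 genes tested with edgeR's quasi-likelihood test, 6809 (45.1%) passed an adjusted p of 0.05, with 3218 (21.3%) higher and 3591 (23.8%) lower in PKP4-KO. Of these, 1820 (12% of all tested) rose at least 2-fold and 2120 (14%) fell at least 2-fold. The libraries of the genotypes did not overlap for 8350 genes (55.2%), among them 6474 of the 6809 called genes. Many genes named below were picked as called list members with the largest log2 fold changes. Separation noted for such genes follows largely from that choice. The share of higher genes among the calls was 47.3%, and 25.7% without TMM factors, so the balance of directions rests on that scaling. These shares are the background against which every group of genes below is read.

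The genes with the steepest fall included several secreted and membrane proteins of WT cells. Igfbp2, a binding protein for insulin-like growth factors, fell from 3100.1, 2735 and 2979.9 CPM to 27.3, 4.61 and 21.8 CPM (log2FC -7.35 ± 0.44, adjusted p = 1.12e-13). Pmp22, a myelin and epithelial membrane protein, fell from 35.1, 36.1 and 42.2 CPM to 0.366, 0.0839 and 0.30 CPM (log2FC -7.12 ± 0.50, adjusted p = 2.43e-12). Klra8, a receptor best known from natural killer cells, fell from 38.6, 46.5 and 46.4 CPM to 0.853, 0.335 and 0.50 CPM (log2FC -6.23 ± 0.34, adjusted p = 1.84e-14). Genes named by their fold change were picked among those whose libraries did not overlap, so the separation of these 3 genes follows from the choice. The smooth muscle actin gene Acta2 was at 8.48, 8.2 and 6.23 CPM in WT and at 0, 0.0839 and 0.15 CPM in PKP4-KO (log2FC -6.42 ± 0.58, adjusted p = 5.66e-10; without PKP4-KO replicate 3 the log2FC was -7.50). At the other end stood protease inhibitors of stratified epithelia. Serpinb3a rose from 1.05, 0.396 and 0.637 CPM to 92.1, 82.6 and 84 CPM (log2FC 6.97 ± 0.50, adjusted p = 4.22e-12). Serpinb12 went from 0.451, 0.158 and 0.318 CPM to 42.1, 31.4 and 36 CPM (log2FC 6.89 ± 0.55, adjusted p = 4.74e-11). Ctsz, a lysosomal cathepsin, rose from 0.251, 0.198 and 0.318 CPM to 60.4, 52.8 and 39.8 CPM (log2FC 7.61 ± 0.46, adjusted p = 1.35e-13), and Mgarp, a mitochondrial protein, from 0.15, 0.198 and 0.136 CPM to 41, 24.4 and 24.9 CPM (log2FC 7.47 ± 0.47, adjusted p = 1e-12). Adm2, a peptide hormone of the calcitonin family, had 3 counts in the WT libraries together and 11.5, 18.6 and 12 CPM in PKP4-KO (ratio of PKP4-KO to WT 301, 95% counting interval 103 to 1464, adjusted p = 8.34e-13). The stefin genes Stfa3 and Cstdc5, cysteine protease inhibitors, rose from 8.73, 5.74 and 6.09 CPM to 501, 1717 and 579 CPM (log2FC 7.09 ± 1.06, adjusted p = 3.61e-06) and from 24.9, 19.5 and 25 CPM to 1727, 5466 and 1961 CPM (log2FC 7.04 ± 0.94, adjusted p = 6.19e-07). Both belong to a family of close copies whose reads are uncertain, and both were highest in PKP4-KO replicate 2, without which their log2FC values were 6.30 and 6.31.

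**Figure D1:**
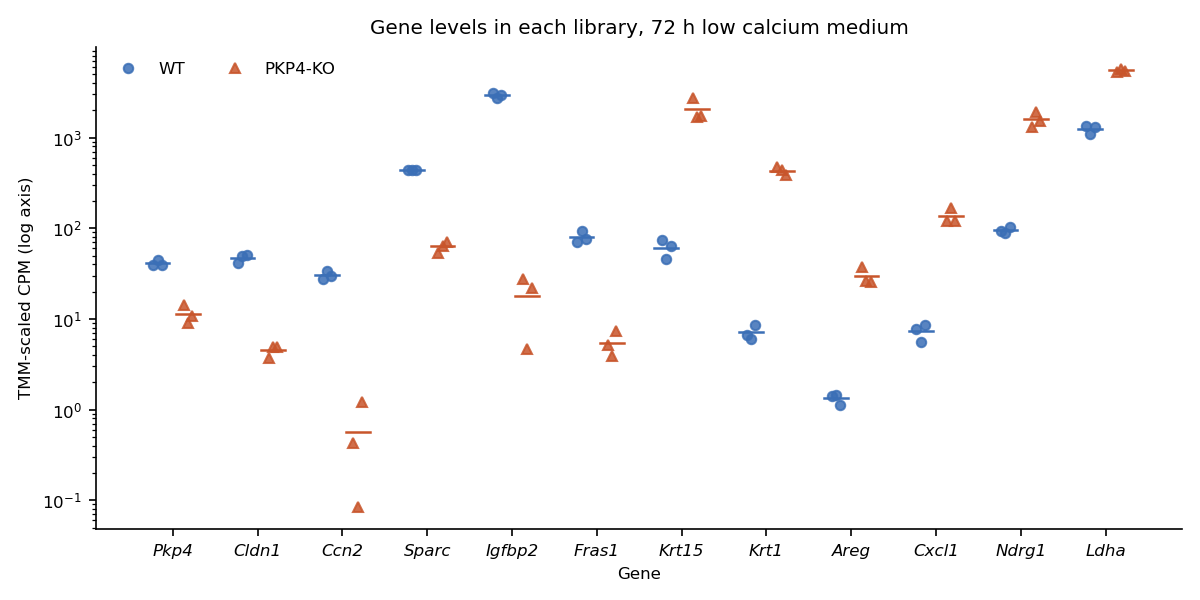
Levels of 12 genes in each library at 72 h LCM, in TMM-scaled CPM on a log axis. Circles are the 3 WT libraries, triangles the 3 PKP4-KO libraries and the bars the group means. The groups are separated in every gene shown. All 12 were called, and 6474 of the 6809 called genes were separated, so this follows largely from the choice. Igfbp2 fell from a WT mean of 2938 to 17.9 CPM and Ndrg1 rose from 95 to 1587 CPM.

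The keratins that form the scaffold of the epidermis moved to different degrees. Of the basal pair, Krt14 had 39040.3, 30059 and 35034 CPM in WT and 43862, 32932 and 32923 CPM in PKP4-KO (log2FC 0.08 ± 0.15, adjusted p = 0.697) and its partner Krt5 rose from 20272, 17665 and 18883 CPM to 25595, 30612 and 26552 CPM (log2FC 0.54 ± 0.18, adjusted p = 0.0156). The call on Krt5 was lost without TMM factors, without a filter on low counts, in a fit of the 6 libraries alone, without WT replicate 2 (log2 fold change 0.49) and without PKP4-KO replicate 2 (0.46). Krt15, a keratin of basal and hair follicle stem cells, rose from 73.2, 46.2 and 63.8 CPM to 2762, 1699 and 1711 CPM (log2FC 5.07 ± 0.29, adjusted p = 4.87e-14). Of the wound keratins, Krt17 rose (log2FC 0.69 ± 0.15, adjusted p = 0.000361) and Krt6b rose (log2FC 1.18 ± 0.19, adjusted p = 1.33e-05), while Krt6a was at 23221, 20403 and 23179.9 CPM and 21364, 24899 and 22145 CPM (log2FC 0.03 ± 0.13, adjusted p = 0.843) and Krt16 at 8826, 6705 and 8275 CPM and 8874, 7444 and 7219.8 CPM (log2FC -0.02 ± 0.16, adjusted p = 0.945); both were called lower without TMM factors (-0.36 and -0.40). Krt6a and Krt6b are near-identical copies, as are stretches of Krt14, Krt16 and Krt17, so that reads could have been split between them. Of the 8 basal and stress keratins 4 rose and none fell; without TMM factors 3 rose and 2 fell.

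Keratins of the suprabasal layers, which differentiating cells switch on, were higher in PKP4-KO although calcium was low. Krt1 rose from 6.72, 5.98 and 8.55 CPM to 476, 435 and 386 CPM (log2FC 5.93 ± 0.57, adjusted p = 1.66e-09). Its partner Krt10 went from 38, 29.8 and 33.3 CPM to 1299.7, 542 and 609 CPM (log2FC 4.60 ± 0.44, adjusted p = 1.21e-09). Krt4, a keratin of mucosal epithelia, rose from 1.4, 1.23 and 0.864 CPM to 6.04, 5.45 and 4.2 CPM (log2FC 2.16 ± 0.30, adjusted p = 1.09e-06). All 3 were apart from WT in every library. Of 8 suprabasal keratins tested, 6 rose and 1 fell (median log2FC 1.44), and 4 rose without PKP4-KO replicate 2. Without TMM factors 3 rose and 1 fell. Among the 34 genes of the cornified envelope and barrier, 16 rose (47.1%) and 6 fell (17.6%), with 15 and 11 without TMM factors. The median log2FC was 0.69.

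The barrier genes that rose were of several kinds. Flg, the precursor of filaggrin, had 2 counts in the WT libraries together and 11.5, 4.7 and 3.55 CPM in PKP4-KO (ratio of PKP4-KO to WT 219.6, 95% counting interval 60.3 to 1821, adjusted p = 3.24e-07). Calm4, an epidermal calmodulin, rose from 385, 202 and 251 CPM to 2517, 2468 and 1624 CPM (log2FC 2.98 ± 0.40, adjusted p = 6.47e-07). The small proline-rich gene Sprr2a1 rose from 403, 338 and 341 CPM to 1138, 2523 and 1334 CPM (log2FC 2.21 ± 0.36, adjusted p = 1.22e-05), with the caution that the Sprr2 genes are close copies. Klk5, a protease of desquamation, rose from 1.5, 0.911 and 0.819 CPM to 17.3, 18.8 and 8.1 CPM (log2FC 3.77 ± 0.39, adjusted p = 5.98e-09), Casp14, the protease that processes filaggrin, by 2.17 ± 0.21 on the log2 scale and Alox12b, a lipoxygenase of barrier lipids, by 2.71 ± 0.29. Others fell. Sprr3 went from 23, 10.6 and 13 CPM to 1.46, 2.35 and 0.75 CPM (log2FC -3.41 ± 0.45, adjusted p = 4.62e-07). Spink5, an inhibitor of kallikreins, went from 140.1, 183 and 149 CPM to 67.1, 27.4 and 48.4 CPM (log2FC -1.72 ± 0.43, adjusted p = 0.00168). Ivl, encoding involucrin, was lower (log2FC -0.91 ± 0.27, adjusted p = 0.00749) but was not called without PKP4-KO replicate 2 (log2 fold change -0.65). Loricrin, listed as Lor, did not pass the test (log2FC -0.28 ± 0.36, adjusted p = 0.537); without PKP4-KO replicate 1 it was called lower at -1.16.

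Transcription factors of keratinocyte fate were divided as well, with 11 of 28 higher and 5 lower (median log2FC 0.30). Without TMM factors 7 were higher and 6 lower, and the median was -0.06. The master regulator Trp63 stood at 128, 155 and 135 CPM and 195, 154 and 232 CPM (log2FC 0.48 ± 0.27, adjusted p = 0.158; called higher at 0.89 with offsets for gene length and at 0.50 in a fit of the 6 libraries alone). Barx2, a homeobox factor, rose from 3.01, 2.81 and 2.18 CPM to 184, 190.5 and 133 CPM (log2FC 5.98 ± 0.53, adjusted p = 3.92e-10). Tfap2c rose from 0.953, 0.911 and 1.09 CPM to 23.2, 21.7 and 17.5 CPM (log2FC 4.39 ± 0.29, adjusted p = 6.67e-13). Elf3, an epithelial ETS factor, went from 12.6, 11.3 and 10.5 CPM to 70.2, 93 and 63.5 CPM (log2FC 2.72 ± 0.16, adjusted p = 9.33e-14). Vdr, encoding the vitamin D receptor, was lower (log2FC -0.73 ± 0.13, adjusted p = 2.46e-05). Notch receptors, which promote the spinous fate, were lower too: Notch1 went from 102, 143 and 111 CPM to 47.4, 49.1 and 63.5 CPM (log2FC -1.16 ± 0.23, adjusted p = 0.000136; -0.50 with offsets for gene length). Notch3 went from 9.93, 17 and 12.6 CPM to 4.27, 3.44 and 4.6 CPM (log2FC -1.68 ± 0.25, adjusted p = 3.84e-06). Their target Hes1 had 51.1, 52.5 and 50 CPM and 81, 49.9 and 71.3 CPM (log2FC 0.40 ± 0.26, adjusted p = 0.218). In the Notch list 2 genes rose and 7 fell of 16.

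Genes of cell-cell junctions were mostly lower in PKP4-KO, most of all those of the tight junction, which seals the granular layer. Cldn1, the main epidermal claudin, fell from 40.9, 49.9 and 50.8 CPM to 3.72, 4.86 and 4.95 CPM (log2FC -3.39 ± 0.21, adjusted p = 1.86e-13). Marveld2, which encodes tricellulin, fell from 5.72, 5.78 and 7.82 CPM to 0.732, 0.503 and 0.55 CPM (log2FC -3.41 ± 0.36, adjusted p = 8.77e-09), and Ocln, encoding occludin, from 4.71, 7.8 and 5.46 CPM to 1.52, 0.671 and 0.95 CPM (log2FC -2.49 ± 0.36, adjusted p = 1.82e-06). The scaffold gene Tjp1, encoding ZO-1, fell from 43.5, 64.1 and 42.5 CPM to 12.6, 11 and 14.3 CPM (log2FC -1.98 ± 0.27, adjusted p = 9.95e-07). No PKP4-KO library reached the WT range in these 4 genes. Cldn4 fell as well (log2FC -1.69 ± 0.17, adjusted p = 6.27e-09), while F11r, encoding the adhesion molecule JAM-A, was at 66.4, 57 and 64.3 CPM and 63.7, 62.6 and 63.2 CPM (log2FC 0.01 ± 0.10, adjusted p = 0.921). Crb3, a polarity protein, was the only member of the list that rose (log2FC 0.85 ± 0.25, adjusted p = 0.00728), and it was not called without PKP4-KO replicate 2 (0.66). In all, 14 of 19 tight junction genes fell (73.7%) and 1 rose (median log2FC -1.19).

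Of 16 desmosomal genes, which anchor keratin filaments, 9 fell (56.2%) and 1 rose (median -1.07, or -0.68 with genes that lack counts in a group set against the floor). Dsg2, a desmoglein of basal cells, went from 4.21, 5.74 and 4.68 CPM to 0.061, 0 and 0.15 CPM (log2FC -5.80 ± 0.59, adjusted p = 4.83e-09; without PKP4-KO replicate 3, -6.87). Dsc2 fell from 9.73, 8.04 and 11.9 CPM to 1.1, 0.755 and 0.70 CPM (log2FC -3.53 ± 0.44, adjusted p = 2.12e-07), and the basal desmosomal cadherins Dsc3 and Dsg3 fell by 1.96 and 1.56 on the log2 scale. Dsp, encoding desmoplakin, went from 1733, 2106 and 1695 CPM to 1181, 709 and 1143 CPM (log2FC -0.87 ± 0.31, adjusted p = 0.0258). Its call was lost with offsets for gene length (log2 fold change -0.39), without WT replicate 2 (-0.76) and without PKP4-KO replicate 2 (-0.67). The plaque proteins Jup and Pkp1 did not pass the test; Jup, encoding plakoglobin, had 1285, 1413 and 1427 CPM and 962, 1819 and 1169 CPM (log2FC -0.06 ± 0.19, adjusted p = 0.812; called lower at -0.48 without TMM factors). Dsg1a and Dsg1b, close copies whose reads are uncertain, were both lower (log2FC -2.26 ± 0.38, adjusted p = 1.93e-05, and log2FC -1.58 ± 0.36, adjusted p = 0.000698).

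The adherens junction list showed 10 of 18 genes lower (55.6%) and none higher (median -0.61); with offsets for gene length 6 were lower and 2 higher. Cdh1, encoding E-cadherin, fell from 68.2, 86.2 and 78.4 CPM to 42.1, 36.3 and 51.9 CPM (log2FC -0.84 ± 0.18, adjusted p = 0.000401), and Ctnna1, encoding the catenin that links it to actin, from 274, 307 and 288 CPM to 189.8, 157 and 198 CPM (log2FC -0.67 ± 0.15, adjusted p = 0.000431). Vcl, encoding vinculin, fell from 19.9, 29.2 and 24.4 CPM to 12.5, 10.7 and 12.4 CPM (log2FC -1.05 ± 0.19, adjusted p = 4.2e-05). Nectin2 went from 22, 19.7 and 21.8 CPM to 8.72, 7.63 and 7.05 CPM (log2FC -1.44 ± 0.15, adjusted p = 5.03e-09). Each of these 4 genes was separated between the genotypes. Ctnnb1, encoding the cadherin-bound catenin that also serves Wnt signalling, had 499, 566 and 551 CPM and 387, 265 and 450.2 CPM (log2FC -0.55 ± 0.27, adjusted p = 0.1), and Cdh3, encoding P-cadherin, did not pass either (log2FC -0.15 ± 0.14, adjusted p = 0.387); without TMM factors both were called lower, at -0.92 and -0.54. In contrast to these junctions, the gap junction genes Gja1 and Gjb2, which form channels between keratinocytes, rose from 48, 51.7 and 49.6 CPM to 152, 178 and 171 CPM (log2FC 1.75 ± 0.12, adjusted p = 1.91e-12) and from 14.9, 13.5 and 19.7 CPM to 88.1, 113 and 84.7 CPM (log2FC 2.57 ± 0.21, adjusted p = 9.64e-11). Of 8 gap junction genes tested 3 rose and 3 fell.

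**Figure D2:**
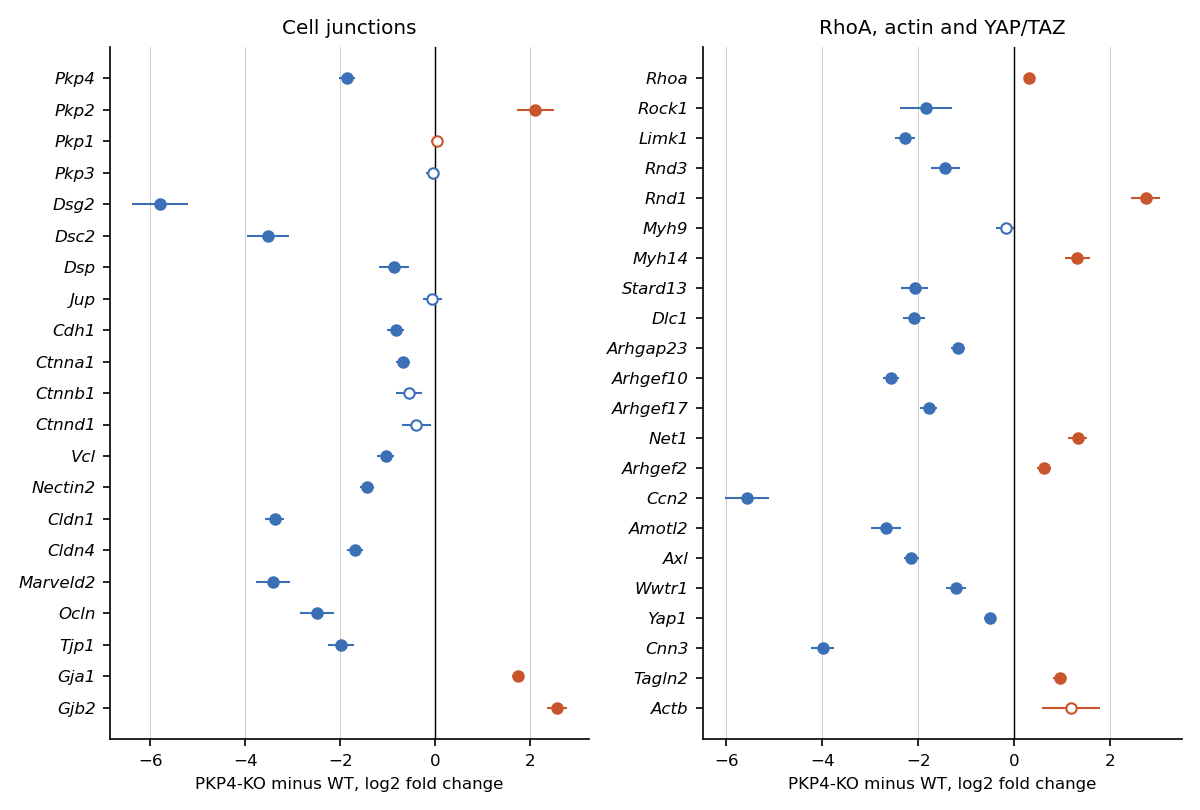
PKP4-KO minus WT log2 fold change at 72 h LCM for genes of cell junctions (left) and of RhoA signalling, actin and YAP/TAZ (right). Points are estimates and bars ± 1 SE from the fit, filled where the adjusted p is below 0.05. Cldn1 at -3.39 and Ccn2 at -5.57 lie far below 0, while Gjb2 at 2.57 and Rnd1 at 2.75 lie above it.

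Genes of the RhoA pathway were lower more often than higher. Of 28 genes for RhoA, ROCK and myosin II, 14 fell (50%) and 6 rose (median -0.84); without PKP4-KO replicate 2, 10 fell and 2 rose, and without TMM factors 17 fell and 2 rose. With offsets for gene length 11 fell and 6 rose (median -0.39). Rhoa itself was at 343, 334 and 375 CPM and 386, 449.8 and 464 CPM (log2FC 0.31 ± 0.10, adjusted p = 0.018), a small difference whose sign turned without TMM factors (-0.08) and whose call was also lost without WT replicate 2 (0.27), PKP4-KO replicate 2 (0.28) or PKP4-KO replicate 3 (0.25), without a filter on low counts (0.28) and in a fit of the 6 libraries alone (0.33). Rock1 fell from 7.07, 10.9 and 6.87 CPM to 4.02, 1.34 and 1.55 CPM (log2FC -1.84 ± 0.55, adjusted p = 0.00762; -1.08 with offsets for gene length and -2.51 without PKP4-KO replicate 1). Limk1, the kinase that blocks cofilin downstream of ROCK, fell from 39.9, 40.1 and 38.1 CPM to 7.5, 10.7 and 6.4 CPM (log2FC -2.27 ± 0.21, adjusted p = 6.7e-10). The genotypes did not overlap in either kinase. Rnd3, an antagonist of RhoA, fell from 57.6, 72.6 and 67.3 CPM to 25.2, 19 and 28.7 CPM (log2FC -1.43 ± 0.30, adjusted p = 0.000284), whereas its relative Rnd1 rose from 2.06, 1.74 and 2.23 CPM to 14.3, 14.3 and 11.9 CPM (log2FC 2.75 ± 0.30, adjusted p = 2.11e-08). Of the myosin heavy chains, Myh9 had 218, 254 and 228 CPM and 255, 156 and 209 CPM (log2FC -0.18 ± 0.19, adjusted p = 0.466; 0.42 and called with offsets for gene length) and Myh14 rose from 27.5, 28.6 and 24.1 CPM to 94.6, 40.8 and 65.1 CPM (log2FC 1.32 ± 0.26, adjusted p = 0.000171). Mylk and Myl9, the myosin light chain kinase and the smooth muscle light chain, were too low to be tested.

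Guanine nucleotide exchange factors (GEFs) switch small GTPases on and GTPase-activating proteins (GAPs) switch them off. The genes named here are examples and do not give the balance of directions among such genes. The GAP genes Stard13 and Dlc1 fell from 8.33, 11.6 and 10.1 CPM to 2.56, 2.26 and 2.3 CPM (log2FC -2.07 ± 0.27, adjusted p = 5.24e-07) and from 17.9, 30.4 and 20.6 CPM to 4.02, 4.78 and 7.25 CPM (log2FC -2.09 ± 0.23, adjusted p = 1.58e-08; -1.42 with offsets for gene length). Arhgap23 was lower too (log2FC -1.16 ± 0.15, adjusted p = 2.56e-07). The GEF genes Arhgef10 and Arhgef17 fell from 12.7, 14.3 and 11.6 CPM to 1.83, 2.26 and 2.4 CPM (log2FC -2.57 ± 0.17, adjusted p = 5.58e-13) and from 28.5, 43.3 and 30.6 CPM to 8.29, 10.2 and 11.2 CPM (log2FC -1.78 ± 0.17, adjusted p = 1.15e-09). In the other direction, Net1, encoding a GEF for RhoA, rose from 173, 185 and 170.3 CPM to 352, 556 and 418 CPM (log2FC 1.33 ± 0.19, adjusted p = 2.5e-06). Arhgef2, encoding another GEF for RhoA that is held inactive on microtubules, rose from 22.8, 28.7 and 24.1 CPM to 42.4, 34.4 and 39.2 CPM (log2FC 0.62 ± 0.14, adjusted p = 0.000741). Arhgef2 was not called without TMM factors (0.23).

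Genes of the YAP, TAZ and TEAD list, which holds members of the pathway beside its targets, were lower in most cases. The targets respond to tension and cell density. Of 23 tested genes of the list 18 were lower (78.3%) and none was higher (median -1.21), and 14 were lower with offsets for gene length. Ccn2, the standard target, fell from 27.2, 34 and 29.7 CPM to 0.427, 0.0839 and 1.2 CPM (log2FC -5.57 ± 0.46, adjusted p = 8.79e-11; without PKP4-KO replicate 3, -6.74). Amotl2 fell from 37.1, 45.9 and 37.6 CPM to 6.89, 3.86 and 8.05 CPM (log2FC -2.67 ± 0.31, adjusted p = 4.83e-08) and the receptor kinase Axl from 125, 157 and 129 CPM to 24.8, 33 and 35.2 CPM (log2FC -2.15 ± 0.16, adjusted p = 5.31e-12). The coactivator Yap1 was at 133, 158 and 139 CPM and 82.1, 108 and 113 CPM (log2FC -0.50 ± 0.13, adjusted p = 0.00183), a difference that was not called with offsets for gene length (-0.03), while its relative Wwtr1, encoding TAZ, was lower without such offsets (log2FC -1.21 ± 0.20, adjusted p = 1.4e-05). Genes of actin and of the serum response factor were mixed, with 4 of 24 higher and 10 lower. The counts were 1 and 12 without TMM factors, and 6 and 7 with offsets for gene length. Cnn3, a calponin, fell from 156, 142 and 158 CPM to 11, 5.95 and 11.5 CPM (log2FC -3.99 ± 0.24, adjusted p = 8.53e-14) and Tagln2, a related protein of epithelia, rose from 677, 603 and 685 CPM to 1071, 1564 and 1170.3 CPM (log2FC 0.95 ± 0.14, adjusted p = 3.93e-06). The cytoplasmic actins did not pass the test. Actg1 had 1438, 1569 and 1687 CPM and 1693, 1596 and 2123 CPM (log2FC 0.21 ± 0.21, adjusted p = 0.424). The values of Actb are given above (log2FC 1.18 ± 0.60, adjusted p = 0.111).

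**Figure D3:**
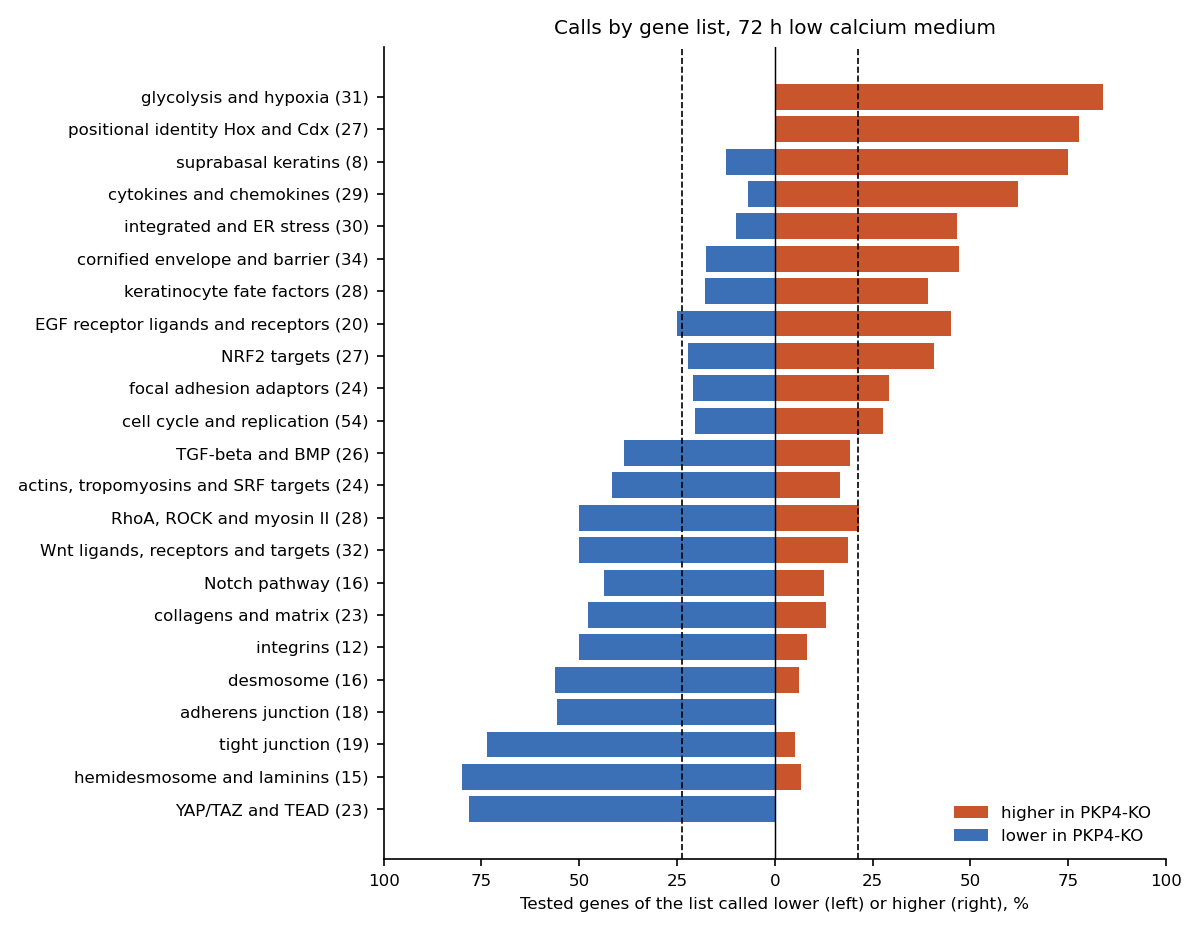
Share of tested genes called higher (right) and lower (left) in PKP4-KO at 72 h LCM for 23 gene lists, with the number of tested genes beside each name; dashed lines mark the shares over all 15114 tested genes, 21.3% and 23.8%. Glycolysis and hypoxia (26 of 31 higher) and the Hox genes (21 of 27 higher) stand at one end, YAP/TAZ (18 of 23 lower) and hemidesmosomes and laminins (12 of 15 lower) at the other.

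Genes for attachment to the basement membrane were lower as well. Of 15 genes of hemidesmosomes and laminins, 12 fell (80.0%) and 1 rose (median -1.02). Fras1, which ties the epidermis to the basement membrane, fell from 70.5, 93.3 and 76.5 CPM to 5.18, 3.86 and 7.35 CPM (log2FC -3.86 ± 0.29, adjusted p = 1.51e-11; -3.13 with offsets for gene length). Itga6, encoding the integrin chain of the hemidesmosome, fell from 178, 249.5 and 196 CPM to 61.3, 45.5 and 74.5 CPM (log2FC -1.78 ± 0.31, adjusted p = 3.74e-05), while its partner Itgb4 stood at 144, 188 and 163 CPM and 137, 203 and 181 CPM (log2FC 0.07 ± 0.15, adjusted p = 0.713; called higher with offsets for gene length). Col17a1 fell from 572, 638 and 585 CPM to 265, 303 and 318 CPM (log2FC -1.02 ± 0.13, adjusted p = 2.83e-07) and the laminin gene Lamb1 from 16.8, 18.3 and 18.2 CPM to 4.02, 4.19 and 4.3 CPM (log2FC -2.09 ± 0.19, adjusted p = 4.94e-10). The linker gene Plec was the 1 gene that rose (log2FC 0.67 ± 0.14, adjusted p = 0.000238), a call lost without TMM factors (0.26) and raised to 1.44 with offsets for gene length.

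Of 12 integrin genes 6 fell and 1 rose. The rise was not called without PKP4-KO replicate 2, without TMM factors or in a fit of the 6 libraries alone. With offsets for gene length 2 rose, and 6 fell in each of these fits. Itgb5 and Itgb6, partners of Itgav that bind vitronectin and latent TGF-beta, fell from 92.8, 97 and 97.8 CPM to 17.3, 17.4 and 18.7 CPM (log2FC -2.43 ± 0.13, adjusted p = 9.71e-15) and from 25.8, 32.1 and 27.1 CPM to 3.96, 4.7 and 4.25 CPM (log2FC -2.72 ± 0.21, adjusted p = 1.69e-11). Itgb1 did not pass the test (log2FC -0.13 ± 0.24, adjusted p = 0.678), nor did Itga3 (log2FC 0.01 ± 0.13, adjusted p = 0.967). Of the matrix genes 11 of 23 were lower and 3 higher. Sparc, a matricellular glycoprotein, fell from 435, 438 and 437 CPM to 53.7, 64.2 and 71 CPM (log2FC -2.79 ± 0.13, adjusted p = 1.34e-15), and the basement membrane collagen Col4a2 from 18.7, 24.7 and 16.4 CPM to 0.305, 0 and 0.45 CPM (log2FC -6.11 ± 0.38, adjusted p = 1.86e-13; without PKP4-KO replicate 3, -6.79). Col16a1, a fibril-associated collagen, went the other way, from 1.25, 0.871 and 0.728 CPM to 21, 11 and 19 CPM (log2FC 4.16 ± 0.32, adjusted p = 2.2e-11). Inhibitors of matrix proteases moved in opposite directions. Timp2 fell from 201, 231 and 199 CPM to 12.4, 4.86 and 9.15 CPM (log2FC -4.57 ± 0.26, adjusted p = 2.65e-14), and Timp3 rose from 1.05, 1.07 and 1.23 CPM to 21.5, 32.1 and 40.4 CPM (log2FC 4.80 ± 0.42, adjusted p = 2.17e-10). Tns3, an adaptor of focal adhesions, fell from 77.3, 95.6 and 71.1 CPM to 9.14, 10.1 and 9.95 CPM (log2FC -3.06 ± 0.26, adjusted p = 1.22e-10), whereas the 24 adaptors as a group held 7 higher and 5 lower genes, with 3 higher and 6 lower without PKP4-KO replicate 2 and 2 higher and 9 lower without TMM factors. With offsets for gene length 10 adaptors were higher and 4 lower.

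The list with the highest share of higher genes was that of glycolysis and the response to hypoxia. Cells short of oxygen stabilize the transcription factor HIF, which binds DNA at a short core sequence and switches on glucose transport, glycolysis and genes such as Vegfa. In PKP4-KO 26 of 31 tested genes of the list rose (83.9%) and none fell (median log2FC 2.12), against 21.3% of all genes. The counts were 25 without TMM factors, 27 with offsets for gene length and 24 without PKP4-KO replicate 2, with none lower in each.

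Promoter sequences of the list are shown to let the core sequence of HIF be seen beside the values. They were taken from RefSeq, build GRCm38.p6, and run from 250 bases before to 50 bases after the annotated start, 5′ to 3′ on the strand of the gene, in lower case. Capitals mark each match to ACGTG or GCGTG on either strand; ACGTG also lies within the E-box CACGTG, which other factors bind and which gives a match on both strands. The 4 genes shown are Ankrd37 (chr8:45999801-46000100, reverse strand), Bnip3 (chr7:138909457-138909756, reverse strand), Egln3 (chr12:54203825-54204124, reverse strand) and Pgk1 (chrX:106186850-106187149, forward strand), an ankyrin repeat protein, a mitophagy receptor, a HIF prolyl hydroxylase and a glycolytic enzyme.
Ankrd37: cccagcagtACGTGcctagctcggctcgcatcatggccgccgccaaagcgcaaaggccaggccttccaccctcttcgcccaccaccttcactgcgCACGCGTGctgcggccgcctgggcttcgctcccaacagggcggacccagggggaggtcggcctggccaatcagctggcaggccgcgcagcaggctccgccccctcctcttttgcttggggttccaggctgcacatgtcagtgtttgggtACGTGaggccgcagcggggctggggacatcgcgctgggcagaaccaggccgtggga
Bnip3: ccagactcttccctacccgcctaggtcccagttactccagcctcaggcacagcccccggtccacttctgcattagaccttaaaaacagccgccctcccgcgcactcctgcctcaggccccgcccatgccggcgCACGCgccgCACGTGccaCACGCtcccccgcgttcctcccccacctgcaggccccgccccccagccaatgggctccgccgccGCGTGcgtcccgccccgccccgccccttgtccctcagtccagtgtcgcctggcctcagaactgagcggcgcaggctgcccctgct
Egln3: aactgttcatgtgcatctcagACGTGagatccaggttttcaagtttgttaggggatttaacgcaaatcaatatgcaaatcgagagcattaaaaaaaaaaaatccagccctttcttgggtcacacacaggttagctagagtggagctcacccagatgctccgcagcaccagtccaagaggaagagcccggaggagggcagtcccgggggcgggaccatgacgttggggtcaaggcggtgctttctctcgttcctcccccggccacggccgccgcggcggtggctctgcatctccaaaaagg
Pgk1: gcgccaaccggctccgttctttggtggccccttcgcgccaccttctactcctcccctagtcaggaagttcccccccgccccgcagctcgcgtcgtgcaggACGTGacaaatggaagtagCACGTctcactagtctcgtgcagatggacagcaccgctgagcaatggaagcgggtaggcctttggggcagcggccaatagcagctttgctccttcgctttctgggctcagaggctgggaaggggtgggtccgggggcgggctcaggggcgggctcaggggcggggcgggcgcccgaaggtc
Ankrd37 held 4 matches, Bnip3 5, Egln3 1 and Pgk1 2. Of the 31 members of the list with a promoter in the table, 22 (71.0%) had at least 1 match, and of the 25 that were called higher 18 had one. Among all 27025 genes with a promoter 43.8% had a match, among the 10313 that were tested 63.0%, and among the 2250 tested genes that were called higher 62.1%. A match is a string of letters in this window and not a site shown to be bound.

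The members ranged over the whole pathway. At its head, the glucose transporter Slc2a1 rose by 1.27 ± 0.14 on the log2 scale, and the hexokinases Hk1 and Hk2 by 2.12 ± 0.15 and 1.73 ± 0.14. In the lower part of glycolysis, Tpi1 rose from 934, 604 and 801 CPM to 3977, 3156 and 3116 CPM (log2FC 2.13 ± 0.17, adjusted p = 5.35e-11). Eno1 went from 922, 838 and 882 CPM to 3673, 3735 and 3670.1 CPM (log2FC 2.07 ± 0.12, adjusted p = 1.17e-13). Pkm went from 1856, 1699 and 1763 CPM to 6335, 5631 and 5503 CPM (log2FC 1.72 ± 0.12, adjusted p = 2.68e-12). Ldha, which turns pyruvate into lactate, rose from 1348, 1095 and 1307 CPM to 5348, 5716 and 5484 CPM (log2FC 2.14 ± 0.13, adjusted p = 1.72e-13). These enzymes were separated in all libraries and stood within a narrow range of fold changes. Gapdh went from 50.6, 55.8 and 39.5 CPM to 199, 998 and 165 CPM (log2FC 3.22 ± 1.05, adjusted p = 0.0137), with PKP4-KO replicate 2 far above the others. Its call was lost without that library (1.91) and without WT replicate 3 (3.09), and its many processed copies make its reads uncertain. Several HIF targets outside glycolysis rose as well. Ndrg1, a marker of hypoxia and differentiation, rose from 92.7, 88.4 and 104 CPM to 1302, 1922 and 1538 CPM (log2FC 4.06 ± 0.19, adjusted p = 5.46e-16). Egln3 rose from 21.4, 19.1 and 19.5 CPM to 277, 311 and 246 CPM (log2FC 3.80 ± 0.21, adjusted p = 1.19e-14). Bnip3 went from 14, 12.6 and 11.3 CPM to 260.2, 236 and 284 CPM (log2FC 4.36 ± 0.27, adjusted p = 1.58e-13). Ankrd37 went from 2.11, 1.78 and 1.55 CPM to 111, 118 and 54.9 CPM (log2FC 5.70 ± 0.46, adjusted p = 5.13e-11). Vegfa, the angiogenic ligand, rose by 2.62 ± 0.30 and Car12, a carbonic anhydrase, by 3.27 ± 0.19.

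Members that did not pass were Pdk1 (log2FC 0.33 ± 0.19, adjusted p = 0.156; called higher with offsets for gene length), Mxi1 (log2FC -0.06 ± 0.17, adjusted p = 0.776), Hif1a itself (log2FC -0.70 ± 0.48, adjusted p = 0.24), and Eno2 and Car9, which had fewer than 10 counts per genotype. Ndufa4l2, a mitochondrial protein that is a known HIF target but no member of the list, was named by its fold change and rose from 0.853, 0.475 and 0.546 CPM to 138, 244 and 81.4 CPM (log2FC 7.95 ± 0.64, adjusted p = 4.9e-11). Pgf, a relative of Vegfa, had 1 count in the WT libraries together and 8.84, 8.47 and 5.05 CPM in PKP4-KO (ratio of PKP4-KO to WT 482, 95% counting interval 86 to 19105, adjusted p = 2.72e-07). Txnip, which restrains glucose uptake, fell from 63.2, 72.3 and 60.5 CPM to 2.26, 1.09 and 1.2 CPM (log2FC -5.41 ± 0.40, adjusted p = 8.34e-12).

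Most of these genes had a larger effect at 72 h than at 24 h. The PKP4-KO effect at 72 h LCM was tested against that at 24 h LCM as a difference of differences in the same model; the comparisons share no library. Over all genes, 794 differed (5.25%), 519 (3.43%) with a higher and 275 (1.82%) with a lower effect at 72 h. In the list of glycolysis and hypoxia 24 of 31 differed, all with the higher effect at 72 h. Ndrg1 had a log2FC of -0.09 at 24 h LCM and of 4.06 at 72 h LCM (difference 4.15 ± 0.24, adjusted p = 4.27e-12). For Egln3 the values were -0.75 and 3.80 (difference 4.55 ± 0.28, adjusted p = 6.66e-12), for Ankrd37 1.62 and 5.70 (difference 4.08 ± 0.64, adjusted p = 0.000116) and for Bnip3 1.55 and 4.36 (difference 2.81 ± 0.35, adjusted p = 2.79e-06). The glycolytic enzymes differed less, with Hk2 at 0.35 and 1.73 (difference 1.38 ± 0.19, adjusted p = 1.67e-05) and Hk1 at 0.53 and 2.12 (difference 1.59 ± 0.21, adjusted p = 8.59e-06). In WT, Ndrg1 had a mean of 50.9 CPM at 24 h and 95 CPM at 72 h; in PKP4-KO the means were 47.9 CPM and 1587 CPM. At 72 h HCM the list was higher in PKP4-KO as well: the median log2FC was 1.41, and Ndrg1 stood at 3.81. Oxygen, glucose and cell density were not measured in these files, and their part was not tested. The library titles carry the tag HD at 72 h and LD at 24 h in every group, so what these tags mark cannot be told apart from time.

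**Figure D4:**
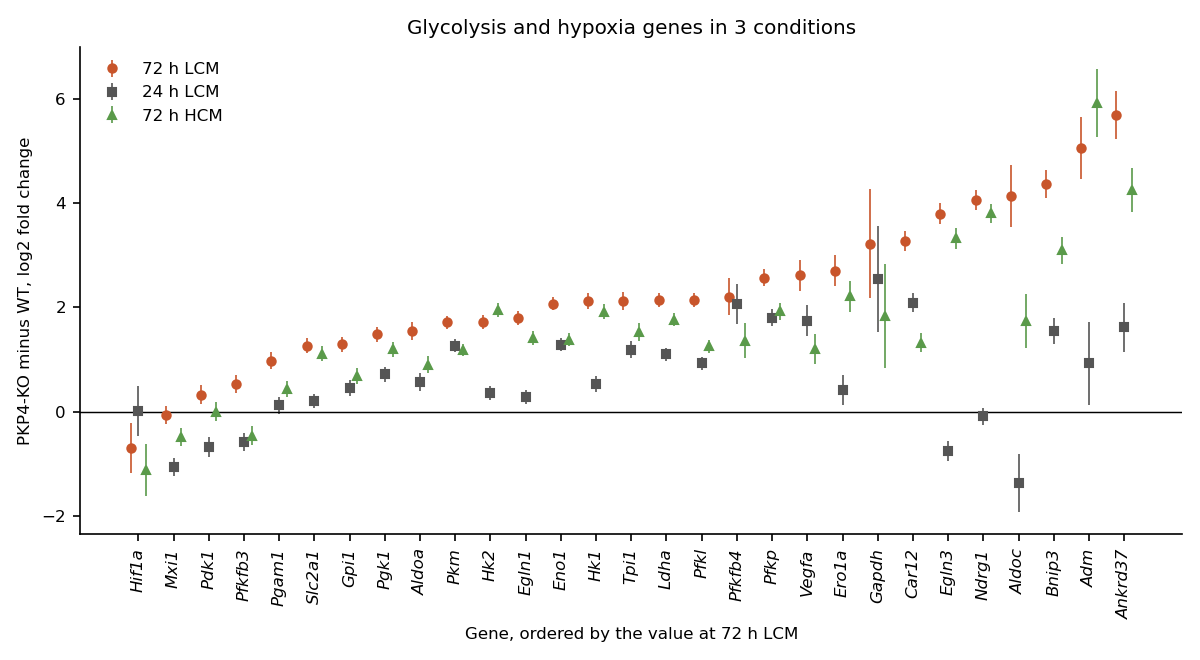
PKP4-KO minus WT log2 fold change for the tested genes of glycolysis and hypoxia (without Eno2 and Car9, with fewer than 10 counts per genotype) at 72 h LCM (circles), 24 h LCM (squares) and 72 h HCM (triangles), with bars of ± 1 SE from the fit. The circles lie above the squares for most genes; Egln3 is at 3.80, -0.75 and 3.33 in that order.

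Differentiation genes made up another part of the contrast with 24 h LCM. Of the 34 cornified envelope and barrier genes 13 had a higher effect at 72 h and none a lower one. The transglutaminases Tgm1 and Tgm3, which cross-link the envelope, differed by 2.43 and 2.41 on the log2 scale from values of -1.66 and -1.31 at 24 h, Casp14 by 2.15 and Alox12b by 2.57. Krt10 had a log2FC of 1.63 at 24 h and 4.60 at 72 h (difference 2.97 ± 0.55, adjusted p = 0.000795). The wound and suprabasal keratins Krt6b, Krt13 and Krt80 were lower than WT at 24 h (-1.03, -1.35 and -1.43) and higher at 72 h (1.18, 0.73 and 0.72), with differences of 2.20, 2.08 and 2.14. At 72 h LCM neither Krt13 (0.34) nor Krt80 (0.32) was called without TMM factors, and Krt13 was not called with offsets for gene length (0.46) or without WT replicate 2 (0.58), PKP4-KO replicate 1 (0.71) or PKP4-KO replicate 2 (0.62). The same turn of sign was seen in the differentiation factors Grhl3 (-1.31 to 1.08, difference 2.39 ± 0.28, adjusted p = 1.53e-06) and Ovol1 (-1.19 to 0.79, difference 1.98 ± 0.22, adjusted p = 8.83e-07). Zfp750 was lower at both times, at -2.38 and -0.54 (difference 1.84 ± 0.21, adjusted p = 1.04e-06). Cldn4 was likewise lower at both times, with -3.40 at 24 h and -1.69 at 72 h (difference 1.71 ± 0.24, adjusted p = 2.74e-05).

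Among single genes, Myo5b, a motor of recycling vesicles, went from -3.68 to 0.89 (difference 4.56 ± 0.41, adjusted p = 2.72e-08; at 72 h LCM it was not called without TMM factors, 0.50), and Pkp2 from -1.54 to 2.11 (difference 3.65 ± 0.60, adjusted p = 0.000193). Among the genes with a lower effect at 72 h, Txnip stood at -2.78 at 24 h (difference -2.63 ± 0.49, adjusted p = 0.000838). Timp3 was at 7.34 at 24 h and 4.80 at 72 h (difference -2.53 ± 0.55, adjusted p = 0.00458), and Slc29a1, a nucleoside transporter, at 6.85 and 4.11 (difference -2.75 ± 0.45, adjusted p = 0.000164). The log2FC of Pkp4 was -2.98 at 24 h and -1.86 at 72 h (difference 1.13 ± 0.22, adjusted p = 0.00191), a difference not called without TMM factors.

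Genes of EGF receptor signalling and of inflammation were among those that set 72 h LCM apart from 72 h HCM. Over all genes 867 (5.74%) differed between the media, 587 (3.88%) with a higher and 280 (1.85%) with a lower effect in LCM. Of the 20 genes of the EGF receptor list 7 had a higher effect in LCM and 1 a lower one. Several are targets of ERK, the kinase downstream of the receptor. Dusp6, a phosphatase induced by ERK, rose at 72 h LCM from 2.81, 2.57 and 2.46 CPM to 49.1, 55.4 and 59.2 CPM (log2FC 4.38 ± 0.24, adjusted p = 1.43e-14), against 0.51 in HCM (difference 3.87 ± 0.31, adjusted p = 2.97e-09). The ETS factors Etv4 and Etv5 rose from 6.52, 8.56 and 9.64 CPM to 62.9, 115 and 66.5 CPM (log2FC 3.30 ± 0.30, adjusted p = 4.94e-10) and from 0.502, 0.357 and 0.909 CPM to 3.78, 7.63 and 6.9 CPM (log2FC 3.36 ± 0.27, adjusted p = 5.44e-11), with differences from HCM of 2.48 and 4.00. The ligand Areg, encoding amphiregulin, rose from 1.4, 1.47 and 1.14 CPM to 37.8, 26 and 25.6 CPM (log2FC 4.47 ± 0.32, adjusted p = 3.62e-12; difference 3.32 ± 0.41, adjusted p = 5.05e-06). All of these were separated between the genotypes in LCM. Epgn, another ligand, rose by 3.44 in LCM and 3.34 in HCM, while the receptors Egfr and Erbb2 were lower (log2FC -0.57 ± 0.19, adjusted p = 0.0154, and log2FC -0.79 ± 0.14, adjusted p = 3.65e-05); the call on Egfr was lost without WT replicate 2 (-0.39), without PKP4-KO replicate 1 (-0.42), in a fit of the 6 libraries alone (-0.54) and with offsets for gene length. The list held 9 higher and 5 lower genes of 20, and with offsets for gene length 10 higher and 1 lower. EGF was part of the medium of both genotypes.

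Of 29 cytokine and chemokine genes 18 rose (62.1%) and 2 fell (median 1.48); without PKP4-KO replicate 2, 16 rose and none fell. The effect was higher than at 72 h HCM for 10 genes and lower for 2, and higher than at 24 h LCM for 10. Cxcl1, which attracts neutrophils, rose from 7.72, 5.55 and 8.64 CPM to 121, 165 and 119 CPM (log2FC 4.21 ± 0.28, adjusted p = 1.08e-12), and Csf3, the granulocyte growth factor, from 0.702, 0.634 and 0.455 CPM to 18.8, 21.9 and 13.7 CPM (log2FC 4.91 ± 0.31, adjusted p = 3.59e-13). Tslp, an alarmin of the skin, rose from 2.21, 1.47 and 3.14 CPM to 14.5, 27.5 and 17.1 CPM (log2FC 3.12 ± 0.36, adjusted p = 5.91e-08). Nfkbia, a feedback inhibitor of NF-kappaB, went from 49.4, 38.7 and 42.2 CPM to 133, 121 and 92.3 CPM (log2FC 1.41 ± 0.14, adjusted p = 3.09e-09). The sum of the immune cell markers given above was not higher in PKP4-KO, but nearly all of it came from Cd68. Of the 4 such markers tested, 1 was called higher (Lyz2, with reads in PKP4-KO replicate 3 alone) and 0 lower. The pan-leukocyte gene Ptprc had 1 count in the WT libraries together and 7 in the PKP4-KO libraries. The part of immune cells in the cytokine values was not tested. The effects on Cxcl1 and Csf3 exceeded those at 72 h HCM by 3.44 and 3.87 and those at 24 h LCM by 3.19 and 2.76. Tslp was instead raised more in HCM, at 5.80 (difference -2.68 ± 0.50, adjusted p = 0.0009), and more at 72 h than at 24 h LCM (difference 2.90). Il33, another alarmin, was lower at 43.4, 54 and 64.5 CPM in WT and 32.7, 34.8 and 42 CPM in PKP4-KO (log2FC -0.56 ± 0.22, adjusted p = 0.0402), but higher in HCM (2.65; difference -3.21 ± 0.32, adjusted p = 1.38e-07). Its call in LCM was lost without WT replicate 2 (-0.57), WT replicate 3 (-0.42), PKP4-KO replicate 1 (-0.49) or PKP4-KO replicate 2 (-0.53). S100a8, an antimicrobial protein of stressed epidermis, had 15.8, 12 and 10.6 CPM and 50.8, 249 and 53.8 CPM (log2FC 3.20 ± 1.04, adjusted p = 0.0138), with its highest value in PKP4-KO replicate 2; it was not called without that library (2.03), without WT replicate 2 (3.15) or without WT replicate 3 (3.07).

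Other genes separated the media too. Id3, an inhibitor of helix-loop-helix factors and a target of BMP, fell in LCM from 71.3, 68 and 68.4 CPM to 21.6, 26.4 and 23 CPM (log2FC -1.55 ± 0.15, adjusted p = 1.8e-09) and stood at 0.93 in HCM (difference -2.48 ± 0.21, adjusted p = 9.38e-09). Mtus1, a microtubule-associated protein, fell from 13.9, 15.5 and 13.4 CPM to 1.95, 1.51 and 1.9 CPM (log2FC -2.99 ± 0.30, adjusted p = 4.57e-09) against 0.18 in HCM (difference -3.16 ± 0.43, adjusted p = 1.78e-05). Ppbp, a chemokine precursor, fell from 27.3, 33.6 and 30.4 CPM to 1.22, 0.922 and 1.8 CPM (log2FC -4.49 ± 0.29, adjusted p = 5.2e-13) and further in HCM, at -8.95 (difference 4.46 ± 0.43, adjusted p = 6.33e-08). Lce1g, a late cornified envelope gene, was at 6.17, 5.23 and 4.41 CPM and 11.4, 6.54 and 3.6 CPM in LCM (log2FC 0.44 ± 0.36, adjusted p = 0.314) and at a log2 fold change of -3.84 in HCM (difference 4.28 ± 0.51, adjusted p = 3.18e-06). Krt15 rose more in LCM than in HCM (difference 1.98 ± 0.35, adjusted p = 0.000513), and Fras1 fell more (difference -2.35 ± 0.39, adjusted p = 0.000245). The PKP4-KO libraries at 72 h HCM had TMM factors of 0.48 to 0.55, and without TMM factors 1304 genes differed between the media, 93.3% of them with a higher effect in LCM against 67.7% with them.

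Stress programmes were divided. In the list of the integrated and endoplasmic reticulum stress responses 14 of 30 genes rose (46.7%) and 3 fell, against 10 and 6 without TMM factors. Atf4, the central factor, rose from 262, 214 and 253 CPM to 780.5, 828 and 671 CPM (log2FC 1.65 ± 0.18, adjusted p = 2.18e-08). Its target Trib3 went from 21, 26 and 32 CPM to 307, 369 and 351 CPM (log2FC 3.70 ± 0.20, adjusted p = 1.68e-14). Ddit3, encoding CHOP, went from 15.5, 11.6 and 11.6 CPM to 72.4, 42.8 and 46.9 CPM (log2FC 2.06 ± 0.26, adjusted p = 2.11e-07). The chaperone Hspa5, the marker of endoplasmic reticulum stress, did not pass the test (log2FC -0.45 ± 0.20, adjusted p = 0.06), but was called lower without PKP4-KO replicate 1 (-0.78) and without TMM factors (-0.82). Of 27 targets of NRF2, the factor of the oxidative stress response, 11 rose and 6 fell, against 7 and 10 without TMM factors. The subunits of glutamate-cysteine ligase, which starts glutathione synthesis, moved apart: the catalytic Gclc fell from 711, 874 and 768 CPM to 129, 118 and 180.5 CPM (log2FC -2.46 ± 0.28, adjusted p = 4.82e-08) and the modifier Gclm rose from 18.3, 14.7 and 17.4 CPM to 50.4, 44.2 and 58.8 CPM (log2FC 1.61 ± 0.29, adjusted p = 6.07e-05). Nqo1 rose from 47, 38.3 and 44.9 CPM to 73.6, 141 and 97 CPM (log2FC 1.26 ± 0.20, adjusted p = 9.69e-06), and G6pdx, encoding the first enzyme of the pentose phosphate pathway, fell from 492, 464 and 501 CPM to 149, 219 and 187 CPM (log2FC -1.39 ± 0.15, adjusted p = 1.44e-08).

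Lipid synthesis changed in few members by much. Scd1, a desaturase, rose from 0.201, 0.277 and 0.50 CPM to 26.8, 41.8 and 39.2 CPM (log2FC 6.75 ± 0.74, adjusted p = 2.01e-08), while its relative Scd2 had 361, 433 and 397 CPM and 412, 427 and 556 CPM (log2FC 0.23 ± 0.21, adjusted p = 0.386; 0.42 and called higher with offsets for gene length). Fdft1, the enzyme that commits to sterols, rose from 64.2, 55.7 and 63.6 CPM to 133, 136 and 136 CPM (log2FC 1.14 ± 0.15, adjusted p = 4.57e-07). Of 32 genes 10 rose and 7 fell, and with offsets for gene length 13 rose and 4 fell. Without TMM factors 4 rose and 11 fell. Genes of antigen presentation are next. B2m, the light chain of class I molecules, rose from 8.38, 9.31 and 8.41 CPM to 77.4, 136 and 84.1 CPM (log2FC 3.51 ± 0.26, adjusted p = 8.73e-12; 2.89 with offsets for gene length). H2-D1 went from 15.3, 11.2 and 12.9 CPM to 87.7, 60.2 and 68.5 CPM (log2FC 2.46 ± 0.15, adjusted p = 1.1e-13) and is one of several near-identical histocompatibility genes. The interferon list as a whole held 5 higher and 5 lower genes of 18.

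Cell cycle genes gave no common direction: of 54, 15 rose and 11 fell, against 2 and 16 without TMM factors and 22 and 8 with offsets for gene length. Ube2c, a mitotic ubiquitin ligase component, rose from 283, 245 and 268 CPM to 468, 686 and 479 CPM (log2FC 1.04 ± 0.22, adjusted p = 0.000427) and Rrm1, a ribonucleotide reductase subunit, fell from 722, 824 and 797 CPM to 236, 221 and 321 CPM (log2FC -1.59 ± 0.21, adjusted p = 5.59e-07). Cdkn1c, a cell cycle inhibitor, rose from 1.1, 0.871 and 0.682 CPM to 12.7, 7.3 and 12 CPM (log2FC 3.59 ± 0.33, adjusted p = 5.67e-10). In the Wnt list 16 of 32 genes were lower and 6 higher, with the target Axin2 going from 6.22, 7.88 and 5.05 CPM to 0.305, 0.587 and 0.45 CPM (log2FC -3.84 ± 0.51, adjusted p = 5.11e-07) and the ligand Wnt7b from 79.4, 85.9 and 81.4 CPM to 14.3, 24.7 and 19.7 CPM (log2FC -2.07 ± 0.19, adjusted p = 4.44e-10). The Wnt counts were 13 lower and 9 higher with offsets for gene length, and 13 lower and 6 higher without PKP4-KO replicate 2. In the TGF-beta and BMP list 10 of 26 fell and 5 rose, led by the BMP antagonist Nog, which went from 8.38, 9.19 and 8.32 CPM to 0.671, 0.335 and 0.70 CPM (log2FC -3.86 ± 0.35, adjusted p = 4.5e-10). In that list 7 fell and 6 rose with offsets for gene length, and 12 fell and 2 rose without TMM factors. Calcium handling genes showed 12 of 23 lower and 2 higher, among them the channel gene Orai3, which fell from 15.4, 16.1 and 16 CPM to 3.17, 3.86 and 4.2 CPM (log2FC -2.08 ± 0.19, adjusted p = 4.41e-10), and 8 lower and 5 higher with offsets for gene length. Anxa3, a calcium-binding annexin, fell from 482, 484 and 556 CPM to 46, 35.6 and 44.1 CPM (log2FC -3.60 ± 0.20, adjusted p = 1.82e-14), while Anxa2 had 3710.3, 2886 and 3464 CPM and 4876, 4691 and 4644 CPM (log2FC 0.50 ± 0.13, adjusted p = 0.00303), a call lost without TMM factors (0.12) and in a fit of the 6 libraries alone (0.53). Of the mesenchymal regulators, Snai1 rose from 0.0502, 0.119 and 0.182 CPM to 23.2, 39.6 and 27 CPM (log2FC 7.89 ± 0.69, adjusted p = 5.83e-10) and Twist1 fell from 16.1, 12 and 16.1 CPM to 5.79, 3.19 and 2.45 CPM (log2FC -1.95 ± 0.30, adjusted p = 5.75e-06). Vim, encoding vimentin, did not pass the test (log2FC -0.15 ± 0.94, adjusted p = 0.91). Without PKP4-KO replicate 3 the log2FC of Vim was -2.35, also not called. In the remaining lists, 5 of 19 mesenchymal genes rose and 6 fell, 6 of 26 p53 targets and cell cycle inhibitors rose and 11 fell, 6 of 17 matrix proteases and inhibitors rose and 6 fell, 5 of 17 S100 proteins and annexins rose and 3 fell, and 1 of 5 keratins of simple epithelia rose and 2 fell.

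Hox genes, whose expression records the position of the skin along the body axis and which cells keep in culture, had the largest median difference of the lists: of 42 Hox and Cdx genes 27 were tested, of which 21 rose and none fell. The median log2FC was 4.22, or 3.97 where genes without WT counts are set against the floor; 17 rose and 2 fell without TMM factors, and 21 rose and 1 fell without PKP4-KO replicate 2. Hoxc5 went from 0, 0.0792 and 0.136 CPM to 15.3, 20.1 and 14.7 CPM (log2FC 7.69 ± 0.52, adjusted p = 1.44e-12; without WT replicate 3, 8.36). Hoxa7 went from 0.401, 0.158 and 0.182 CPM to 27.2, 39.9 and 19.8 CPM (log2FC 6.87 ± 0.72, adjusted p = 9.05e-09). Hoxb2 went from 0.10, 0.0792 and 0.0909 CPM to 12.7, 10.8 and 11 CPM (log2FC 6.90 ± 0.44, adjusted p = 3.59e-13). Hoxb7 went from 1.3, 0.871 and 0.909 CPM to 26, 13.8 and 17.6 CPM (log2FC 4.22 ± 0.26, adjusted p = 2.17e-13). Hoxb9 and Hoxc13 did not pass the test, with 27, 26.7 and 26.7 CPM and 26.8, 34.2 and 30.7 CPM (log2FC 0.19 ± 0.16, adjusted p = 0.347) and 16.3, 19.3 and 18.1 CPM and 10.7, 20.6 and 15 CPM (log2FC -0.22 ± 0.20, adjusted p = 0.378; -0.63 and called lower without TMM factors). The site of the skin that the cells came from is not given in the sources used here, and pups and genotype cannot be told apart. The differences were also present at 24 h LCM and 72 h HCM, with list medians of 3.42 and 4.24. Xist, the RNA of the inactive X chromosome, was at 27.4, 45.7 and 25.6 CPM in WT and 0.122, 0 and 0.65 CPM in PKP4-KO (log2FC -6.75 ± 0.82, adjusted p = 1.3e-07; without PKP4-KO replicate 3, -8.74), and of the Y-linked genes Uty and Kdm5d had no counts in the 6 libraries and Ddx3y had 1 count per genotype.

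Position in the genome also went with the difference. Median log2 fold changes of protein-coding genes lay between -0.62 on the X chromosome and 0.25 on chromosome 14, and chromosomes 18, 5 and 19 stood at -0.45, -0.44 and -0.38. In windows of 40 consecutive tested genes on GRCm39 the lowest median was -4.71 on chromosome 2 from 173579272 to 178066221, where 27 genes were called lower and 6 higher. The highest was 2.27 on chromosome 4 from 106518412 to 109822845, where 37 were called higher and none lower. In the first window the medians at 72 h HCM, 24 h LCM and 24 h HCM were -4.71, -4.56 and -4.63, and in the second 2.24, 2.19 and 2.17. Values of nearly the same size were thus seen in all 4 conditions.

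Gene length went with the difference too. Over the 15114 genes the log2 fold change and the exon length had a Spearman correlation of -0.36, across genes that are not independent and that share the same libraries. The shortest of 6 equal classes (up to 1410 bases) had a median log2FC of 0.84 and the longest (from 7669 bases) one of -0.50; with offsets that follow length in each library the medians were 0.17 and 0.00. In the longest class 42.6% of genes were called lower and 11.7% higher. Exon lengths differed between the lists, with a median of 9142 bases in that of hemidesmosomes and laminins and of 4705 bases in that of glycolysis and hypoxia. The part of RNA quality in this relation was not tested.

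**Figure D5:**
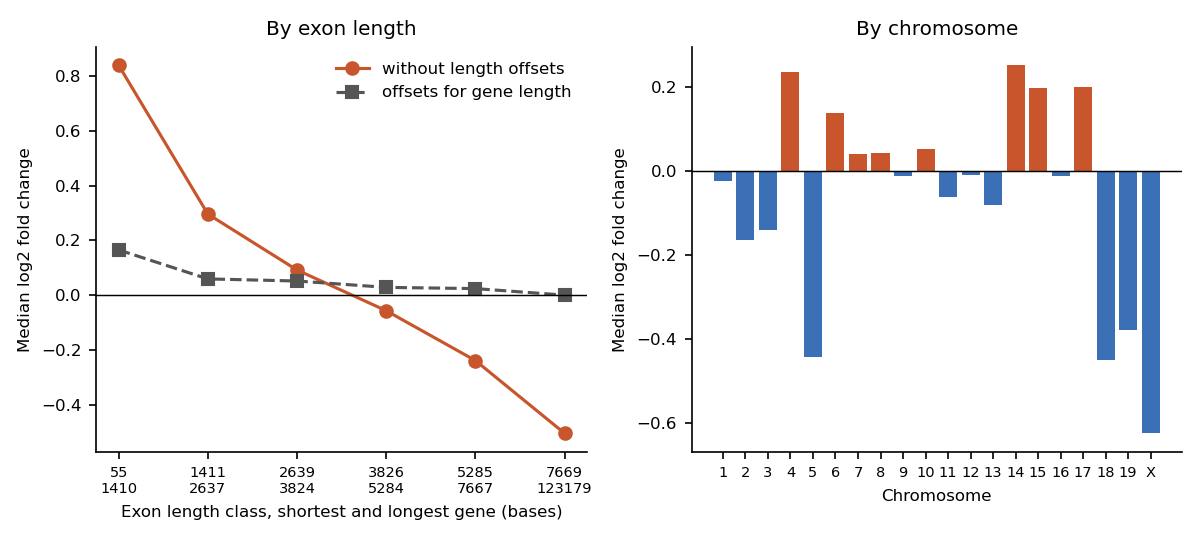
Left, median PKP4-KO minus WT log2 fold change at 72 h LCM in 6 classes of exon length with equal numbers of genes, without length offsets (circles) and with offsets for gene length (squares). Right, median log2FC of protein-coding genes by chromosome at 72 h LCM; the length medians run from 0.84 to -0.50 without length offsets, and the X chromosome is lowest at -0.62.

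Per kilobase of exon, keratins led both genotypes. Krt14 had a mean of 19745 CPM per kb in WT and 20803 in PKP4-KO, beside Krt5 (8621 and 12556), Krt6a (9209 and 9430.4) and, as an example of the translation machinery, the elongation factor Eef1a1 (6462 and 8628). Eef1a1 was called higher at a log2 fold change of 0.42. Its call was lost without TMM factors (0.03), without a filter on low counts (0.39), in a fit of the 6 libraries alone (0.44) and with offsets for gene length (0.26). Hspb1, a small heat shock protein, was among the most abundant RNAs of WT and fell from 4808, 4612 and 4481 CPM to 1283, 775 and 1488 CPM (log2FC -1.97 ± 0.37, adjusted p = 9.89e-05). Gsto1, a glutathione transferase, fell from 8869.8, 7036 and 8206 CPM to 3682, 4495 and 4024 CPM (log2FC -0.98 ± 0.14, adjusted p = 1.38e-06). Lgals7, an epidermal galectin, had 2269.9, 1597 and 1657 CPM and 3350.3, 8635 and 2474 CPM (log2FC 1.39 ± 0.82, adjusted p = 0.166), with the highest value in PKP4-KO replicate 2; in a fit of the 6 libraries alone it was called higher (1.43).

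The Rescue libraries at 72 h LCM are given beside these values without a test, since they would be set against the same libraries. Endogenous Pkp4 was at 10, 7.44 and 9.13 CPM and the GFP-PKP4 construct at 562, 332 and 336 CPM, against 5.02, 3.09 and 2.55 CPM in WT and 2.07, 0.839 and 3.0 CPM in PKP4-KO. Ndrg1 stood at 815, 728 and 811 CPM, Egln3 at 133, 91.8 and 129 CPM, Igfbp2 at 51.7, 44.6 and 52.6 CPM and Hoxc5 at 0.183, 0.442 and 0.262 CPM. Krt1 was at 3.99, 3.09 and 3.31 CPM, Krt10 at 12.5, 14.2 and 11.4 CPM and Krt15 at 32.2, 29.4 and 29.8 CPM, while Cldn1 was at 36.2, 21.7 and 25.7 CPM and Sparc at 326, 359 and 365 CPM. Ndrg1, Egln3, Igfbp2, Cldn1 and Sparc lay between the ranges of the genotypes. Hoxc5 lay above the WT range and far under the PKP4-KO range, and Krt1, Krt10 and Krt15 lay below both. The Rescue line was selected and carries the construct from a lentiviral vector, and its levels of Pkp4 and of these genes are given as a description.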

How the data were processed

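RNA-seq counts of WT and PKP4-KO keratinocytes at 72 h LCM were taken from the gene-level count table that the authors deposited (36 libraries, 12 groups of 3). Per the methods, poly(A) strand-specific paired reads were aligned with HISAT2 2.1.0 to a reference of mm39 and the GFP-PKP4 construct, sorted with SAMtools 1.10 and counted with featureCounts 2.0.0 on Ensembl GRCm39; the strand setting of the counting is not given in the sources used here, which leaves overlapping and antisense genes uncertain. The exon length is the other deposited column used, in bases. Samples were grouped by their labels, and no column was left out.

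Genes were filtered with filterByExpr over the 12 groups and tested with edgeR 4.0.16 in R 4.3.3: TMM factors, 1 mean per group, 24 residual degrees of freedom, quasi-likelihood test, Benjamini-Hochberg adjustment and a threshold of 0.05. Using all libraries gives 1 shared estimate of the spread. Interaction contrasts compared the PKP4-KO effect between conditions. The 3 libraries of a group number few, and intervals of ratios (95%, exact) and floors (3 counts per library) cover counting error only. Gene positions were from GENCODE vM39, with 98.9% of identifiers matched. Promoters were from the RefSeq table. Tables and figures were made with Python 3.11.15, pandas 2.3.3 and matplotlib 3.10.9.

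Alternatives were DESeq2 1.42.0, no TMM factors, no filter, a mean of at least 10 counts, only the groups compared, the replicate number as a block, and each library left out. Offsets following gene length, a fit without the 72 h HCM PKP4-KO libraries and list counts without PKP4-KO replicate 2 were added after seeing the data. The genes named are Pkp4, members of 42 lists (up to 5 called in each direction, with abundant or well-known ones), the highest and lowest log2 fold changes among protein-coding genes of at least 5 CPM without overlap (likewise for the interaction contrasts), the sex chromosome genes and the most abundant genes per kb. Lyz2 and Col1a1 came from the marker lists. The members and lists were chosen with earlier results of these data known. In data simulated from the library sizes and gene means with 186 changed genes, the test called 67.4% of the genes set to a log2 change of 1. It called 95.7% of those set to 2, with 10 false calls among 162. The simulation gave all genes 1 fixed spread and held far fewer changed genes than the data. It had no trend with gene length and no divergent library, so these shares are not error rates of the real comparison. A few genes and 1 gene list that met the rule for named genes are not reported here.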

Additional observations from a re-analysis of the deposited data

Results flagged for a closer look

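The results below stand out because the PKP4-KO effect at 72 h LCM differed from that in another condition, as tested by an interaction contrast in the model of all libraries (edgeR's quasi-likelihood test, adjusted p below 0.05). Between 72 h LCM and 72 h HCM 867 genes differed. Of the genes described, the difference in log2 fold change was positive, with a higher value in LCM, for Ppbp (4.46), Lce1g (4.28), Etv5 (4.00), Csf3 (3.87), Dusp6 (3.87), Cxcl1 (3.44), Areg (3.32), Etv4 (2.48) and Krt15 (1.98). It was negative for Il33 (-3.21), Mtus1 (-3.16), Tslp (-2.68), Id3 (-2.48) and Fras1 (-2.35). ERK targets and neutrophil-attracting cytokines were among the former, and the alarmins Tslp and Il33 among the latter.

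Between 72 h LCM and 24 h LCM 794 genes differed. The difference was positive, with a higher value at 72 h, for Myo5b (4.56), Egln3 (4.55), Ndrg1 (4.15), Ankrd37 (4.08), Pkp2 (3.65), Cxcl1 (3.19), Krt10 (2.97), Tslp (2.90), Bnip3 (2.81), Csf3 (2.76), Alox12b (2.57), Tgm1 (2.43), Tgm3 (2.41), Grhl3 (2.39), Krt6b (2.20), Casp14 (2.15), Krt80 (2.14), Krt13 (2.08), Ovol1 (1.98), Zfp750 (1.84), Cldn4 (1.71), Hk1 (1.59), Hk2 (1.38) and Pkp4 (1.13). It was negative for Slc29a1 (-2.75), Txnip (-2.63) and Timp3 (-2.53). HIF targets such as Egln3 and differentiation genes such as Krt10 were among the positive values.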

How the results depend on the processing

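The 72 h LCM comparison gave 6809 genes in the main analysis and between 5422 and 6475 with 1 library left out, and Pkp4 stayed lower with log2 fold changes from -2.05 to -1.73 across those fits. Differences from 72 h HCM numbered 867 in the main analysis, 1304 without TMM factors, 503 with no filter and 459 with only the groups compared, and 656 to 908 with 1 library left out. Of these, 67.7% were positive in the main analysis, 93.3% without TMM factors and 55.8% with DESeq2. Differences from 24 h LCM numbered 794, 516 with no filter, 439 with only the groups compared, and 544 to 826 with 1 library left out. The cause of these changes was not tested. With the replicate block the counts were 6660, 841 and 767 and the Pkp4 value -1.87. The labels do not say whether same-numbered libraries belong together, and no pairing was assumed. Deviations of same-numbered WT and PKP4-KO libraries correlated at 0.03, -0.06 and 0.09, and those of differently numbered ones at -0.22 to 0.14. With 3 libraries per group these values cannot exclude a shared preparation.

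Of the 190 single genes described at 72 h LCM, 18 lost their call and 13 gained one under at least 1 alternative. The sign turned, with a call in at least 1 of the fits, for Krt6a (-0.36), Pkp1 (-0.37) and Rhoa (-0.081) without TMM factors and for Myh9 (0.42) with offsets for gene length. Lyz2, which had reads in PKP4-KO replicate 3 alone of the 6 libraries, is given as a level only; its fitted value ranged from 0.00 to 7.93 with 1 library left out. Of the tested differences, 22 of 48 from 72 h HCM and 20 of 67 from 24 h LCM were not called under at least 1 alternative. Genes near the floor of 3 counts allow ratios with wide counting intervals only.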
